A study of Mus musculus with 7 samples.

Results

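The account concerns 49 genes of the synaptic vesicle and SNARE machinery in 7 single neurons of the mouse hippocampus. The genes were picked by symbol, as named members of the release machinery, among 21414 genes named in all 7 tables, and the values of all transcripts of a symbol were summed in each cell. All 49 were found. The cells were long-range VIP-GABAergic cells, inhibitory neurons that express vasoactive intestinal polypeptide (Vip) and send an axon out of their own field. They were taken from stratum oriens/alveus of the CA1 area of VIP-eGFP mice, an MMRRC strain in which green fluorescent protein marks Vip-expressing cells, and they had no experimental treatment. Each cell was patch-clamped in an acute slice, filled with biocytin and aspirated with its cytoplasm and nucleus, and only cells whose axon ran to the subiculum entered the series. The animals' ages and the animal behind each cell are not given in the labels, so the 7 cells formed 1 group and counted as 1 sample. No test between groups was possible, and each SD below is a spread between these cells.

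Neurons release transmitter when a synaptic vesicle fuses with the plasma membrane. Fusion is driven by SNARE proteins: syntaxin and SNAP-25 on the target membrane pair with a synaptobrevin (VAMP) on the vesicle, and synaptotagmins trigger the last step when calcium enters. Complexins hold or promote the assembled complex, NSF and the SNAP adaptors take it apart, and the active zone proteins RIM, Munc13, Bassoon and Piccolo place and prime vesicles at the release site. Synapsins cluster vesicles, while dynamin, amphiphysins and synaptojanin bring the membrane back by endocytosis. Interneurons use the same kind of machinery as other fast-releasing neurons, and many of its genes have paralogs that differ between neuron types.

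For Snap25 and Syn1, whose splice forms the tables list apart, the stretches that set the forms apart are shown first because the values given further on turn on them. Snap25 uses 1 of 2 alternative versions of exon 5, of 118 bases each, on the plus strand of chromosome 2 at chr2:136770057-136770174 (SNAP-25b) and chr2:136769743-136769860 (SNAP-25a). Capitals mark the 31 bases that differ between the versions.
SNAP-25b exon 5: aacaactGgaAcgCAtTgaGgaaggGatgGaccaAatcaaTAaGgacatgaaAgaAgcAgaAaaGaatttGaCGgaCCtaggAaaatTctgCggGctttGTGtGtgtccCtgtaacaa
SNAP-25a exon 5: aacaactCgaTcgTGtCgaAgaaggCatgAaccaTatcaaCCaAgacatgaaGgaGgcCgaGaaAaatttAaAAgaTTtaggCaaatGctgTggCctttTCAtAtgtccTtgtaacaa
Syn1 has a longer and a shorter coding end. The longer form, synapsin Ia, starts the last exon, exon 13, with 38 bases that the shorter form, synapsin Ib, lacks. They are in capitals, with the first 12 shared bases after them in lower case, from the minus strand of chromosome X at chrX:20861560-20861609.
Syn1 extra stretch: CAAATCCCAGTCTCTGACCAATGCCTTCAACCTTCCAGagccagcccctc
Both were read from GENCODE M21 transcripts on GRCm38, the assembly also called mm10.

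The libraries held 1052327 to 3398521 estimated counts. Vip and Gad1, which encodes a GABA-synthesising enzyme, were above 1 TPM (transcripts per 1000000) in 7 of 7 cells, and 5 to 8 of 8 VIP and GABAergic markers passed that level in each cell. Cell 7 stood apart before any result. Its table was made on an Ensembl index and the tables of cells 1 to 6 on RefSeq, and the summed level of 9 oligodendrocyte markers was 20793 TPM in cell 7, against 113 to 1288 TPM in cells 1 to 6. Olig1, Olig2 and Sox10, which define that lineage, were at 0 in cell 7, while 6 of the 9 markers were above 1 TPM. In cell 6, too, 6 of the 9 were above 1 TPM, with Olig1, Olig2 and Sox10 at 119, 90.6 and 9.42 TPM. Olig1 also stood at 42.9 TPM in cell 3. Astrocyte markers summed to 2753 TPM and microglial markers to 1702 TPM in cell 7, against at most 1154 and 1387 TPM in the other cells. By mean log2(TPM + 1), though, the astrocyte list was higher in cell 1, at 4.47, than in cell 7, at 3.79. The microglial list was higher in cells 3 and 5, at 5.96 and 4.52, than in cell 7, at 4.04. The part of all TPM that fell on protein-coding genes lay between 13.1%, for cell 6, and 72.6%, for cell 7. Comparisons of a gene between cells carry that difference in scale, and the order of genes within a cell does not.

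Vesicle and SNARE genes were detected more often than protein-coding genes at large in every cell. Detected means above 1 TPM. The counts of members were 24, 38, 30, 29, 39, 26 and 22 of 49 in cells 1 to 7, which are 49%, 77.6%, 61.2%, 59.2%, 79.6%, 53.1% and 44.9%. In the same cells, 14.9%, 38.8%, 24.9%, 21.3%, 32.7%, 17.4% and 14.7% of 20748 protein-coding genes were detected. The share of members was at least 44.9%, while the share of all genes was at most 38.8%. The mean log2(TPM + 1) of the members was 3.24 ± 0.96 (SD, n = 7 cells), against 1.08 ± 0.46 for all protein-coding genes, and it was higher for the members in each cell. The members took 0.444% to 1.03% of the TPM of protein-coding genes, with the lowest share in cell 7 and the highest in cell 1.

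**Figure D1:**
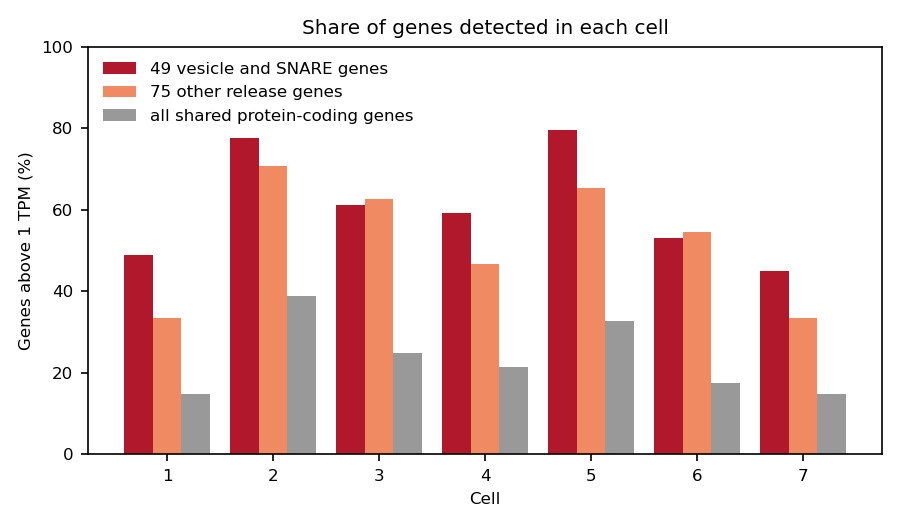
Share of genes above 1 TPM (percent, vertical axis) in each of the 7 cells, for the 49 vesicle and SNARE genes, 75 other genes of transmitter release and all 20748 shared protein-coding genes. The members lie between 44.9% and 79.6%, above the bar for all genes in every cell.

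In 7 of 7 cells, 10 members were detected, which is 20.4% of them, against 2.96% of all protein-coding genes. They were Snap25, Vamp2, Cplx1, Cplx2, Syt1, Syt11, Sncb, Syn2, Sv2a and Dnm1, so that a target SNARE, a vesicle SNARE, complexins, synaptotagmins, vesicle proteins and a membrane-retrieval gene were all among them. On mRNA entries alone the number was 9, without Dnm1. In at least 4 cells, 30 members were detected, against 19% of all genes. Snap29 and Sv2b, 4.08% of the members, were detected in no cell, against 44.8% of all genes. Between these ends, 3, 8, 6, 7, 5 and 8 members were detected in 1, 2, 3, 4, 5 and 6 cells. By rank within a cell, which is free of each table's scale, 5 members were among the 1000 highest protein-coding genes in at least 6 cells. They were Snap25, Cplx1, Syt1, Syp and Dnm1, 10.2% of the members, against 1.27% of all genes. The place of Dnm1 rested on its summed entries, since its mRNA entries alone were below 1 TPM in cells 3 and 6.

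**Figure D2:**
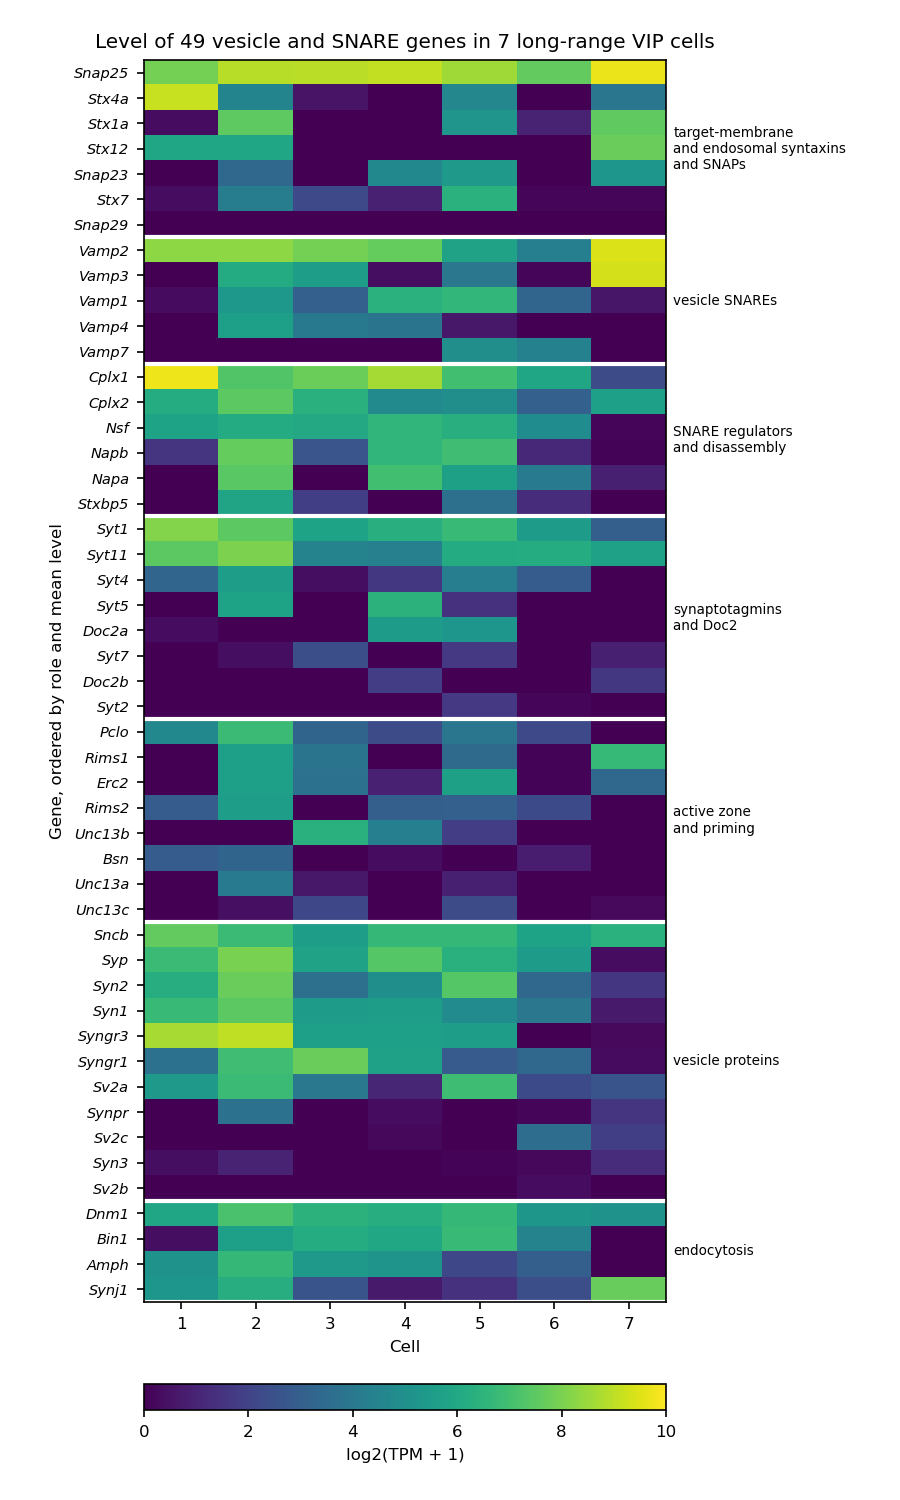
Level of each of the 49 genes (rows, ordered by role and mean level) in each cell (columns), as log2(TPM + 1) on the colour scale. Rows such as Snap25, Sncb and Dnm1, the last of them from its summed entries, are bright across all 7 cells, Snap29 is dark in all of them, and rows such as Nsf, Syp and Syn1 are dark in cell 7 alone.

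Among the target-membrane SNAREs, Snap25 was the steady member and the syntaxins came and went. Snap25 (chr2:136713453-136782428, plus strand) encodes the plasma-membrane SNARE of fast synapses and had the highest mean level of all 49 genes, 8.69 ± 0.73 on the log2 scale (SD, n = 7 cells). It stood at 240, 491, 504, 546, 376, 194 and 844 TPM in cells 1 to 7. The highest and lowest cells were thus 7 and 6, and in each cell Snap25 ranked between place 68 and place 338 of all protein-coding genes. Rescaled to protein-coding genes alone, it was lowest in cell 1, with 658 TPM, and highest in cell 3, with 1949 TPM.

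Stx1a encodes syntaxin-1A, the plasma-membrane partner of SNAP-25. Cells 2, 5 and 7 had 183, 35.8 and 190 TPM, while cells 1 and 6 had 0.266 and 0.966 TPM and cells 3 and 4 were at 0. It was thus above 1 TPM in 3 of 7 cells, and its SD of 3.54 on the log2 scale was the largest of the target SNAREs. The Stx1a reads of cell 5 all lay on a noncoding RefSeq entry of the gene.

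Stx4a, a syntaxin of constitutive exocytosis, was at 579 TPM in cell 1 and ranked 104th there. In the other cells it had 21.8, 0.437, 0, 23.8, 0 and 14.0 TPM, so that 1 cell carried nearly all of it. Stx12, an endosomal syntaxin, was detected in 3 cells at 58.2, 58.6 and 211 TPM and listed at 0 in cells 3 to 6. Stx7, a syntaxin of late endosomes, was above 1 TPM in 3 cells with a highest value of 81.6 TPM in cell 5. Snap23, the widely expressed relative of Snap25, was detected in 4 cells at 9.34 to 40.0 TPM and was at 0 in cells 1, 3 and 6. Snap29, which acts in intracellular fusion, had no count in any cell, where 3 counts would have given 0.260 to 0.545 TPM. Such a floor covers counting error only, since PCR copies carry no molecular identifier.

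Vamp2 led the vesicle SNAREs in 6 of 7 cells. It lies at chr11:69088490-69092384 on the plus strand and encodes synaptobrevin-2, the main vesicle SNARE of forebrain synapses. It had 311, 311, 238, 200, 53.6, 19.2 and 713 TPM in cells 1 to 7, lowest in cell 6 and highest in cell 7. Vamp1, synaptobrevin-1, stood at 0.210, 39.3, 7.31, 82.4, 98.8, 8.71 and 0.501 TPM. Cell 5 was the 1 cell in which Vamp1 was above Vamp2, and Vamp1 was near 0 in cells 1 and 7, where Vamp2 was among its highest.

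Vamp3, cellubrevin, a SNARE of recycling endosomes found in most cell types, varied more than any other vesicle SNARE, with an SD of 3.61 on the log2 scale. Cells 2, 3, 5 and 7 had 69.5, 46.3, 14.8 and 651 TPM, and cells 1, 4 and 6 at most 0.304 TPM. In cell 7, 99.9% of its TPM lay on an entry annotated as a retained intron, 822 bases long. The oligodendrocyte sum of 20793 TPM stood in the same cell, and its part in the value was not tested. Vamp4, a SNARE of the trans-Golgi network and endosomes, was detected in cells 2 to 4 at 13.4 to 48.4 TPM, and Vamp7, a SNARE of late endosomes and lysosomes, in cells 5 and 6 at 29.4 and 19.9 TPM.

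The regulators of SNARE assembly were led by complexins. Cplx1 lies at chr5:108518554-108550024 on the minus strand, and its protein clamps and promotes fusion at fast synapses. It had 852, 156, 215, 398, 123, 58.6 and 4.03 TPM in cells 1 to 7. Cells 1 to 6 were all above cell 7, which had 26.0 counts of this gene. Cplx2, the related complexin, had 71.6, 178, 79.5, 26.4, 29.4, 7.42 and 49.4 TPM. Cplx1 was the higher of the pair in 5 cells and Cplx2 in cells 2 and 7.

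Nsf, the ATPase that pulls spent SNARE complexes apart, was even across cells 1 to 6 and nearly missing from cell 7. It stood at 54.5, 70.3, 64.1, 95.0, 76.3 and 28.4 TPM in cells 1 to 6, while cell 7 had 0.102 TPM from 1 count. Its adaptors did not share that evenness. Napb, the brain-enriched beta-SNAP, had 1.91, 200, 5.18, 95.8, 123, 1.18 and 0.0729 TPM, while Napa, alpha-SNAP, had 0, 175, 0, 125, 50.1, 17.0 and 0.823 TPM. Cells 2, 4 and 5 were high for both. In cells 4 and 6, 87.8% and 100% of Napa TPM lay on a noncoding entry. Stxbp5, tomosyn, which competes with synaptobrevin for the target SNAREs, was above 1 TPM in 4 cells with a median of 1.40 TPM and a highest value of 56.1 TPM in cell 2.

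Of the 6 synaptotagmins among the members, Syt1 and Syt11 were detected in every cell and the other 4 in 1 to 5 cells. Syt1 (chr10:108497650-109010982, minus strand) encodes synaptotagmin-1, the fast calcium sensor of most forebrain synapses. It had 280, 176, 54.1, 76.8, 105, 45.5 and 7.19 TPM in cells 1 to 7. Cell 7 was again the lowest. Syt11, a synaptotagmin that does not bind calcium, had 179, 259, 21, 19.7, 69.5, 72.1 and 51.8 TPM, and cell 7 lay within the range of the others.

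Syt2 is the fast sensor of parvalbumin basket cells and of the hindbrain. Cells 5 and 6 had 2.14 and 0.0889 TPM, and the other 5 cells were at 0. The parvalbumin gene Pvalb stood at 64.8 and 264 TPM in the same 2 cells, but also at 6.66 and 3.58 TPM in cells 3 and 4, where Syt2 was at 0, and the Syt2 value of cell 6 rested on 1.01 estimated counts. Kcnc1 of the same marker list was highest in cell 2, at 136 TPM, where Syt2 was at 0, and stood at 0.951 TPM in cell 6, with Tac1 and Lhx6 of the same marker list at 0 in cell 5 and Lhx6 at 0 in cell 6. Whether those values move with Syt2 was not tested.

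Syt5, found on dense-core and other secretory vesicles, had 54.3, 85.4 and 1.68 TPM in cells 2, 4 and 5, and was at 0 in the other 4. Its SD of 2.90 was the largest of the synaptotagmins and Doc2 genes. Syt4, a synaptotagmin of dense-core vesicles, was above 1 TPM in 5 cells, up to 46.8 TPM in cell 2, and at 0 in cell 7. Syt7, the slow high-affinity sensor, was above 1 TPM in cells 3 and 5, at 4.24 and 2.16 TPM. Doc2a and Doc2b encode calcium sensors linked to spontaneous and asynchronous release. Doc2a stood at 0.269, 43.7 and 37.0 TPM in cells 1, 4 and 5, and was at 0 in the other 4, while Doc2b had 2.54 and 2.04 TPM in cells 4 and 7 alone.

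No active zone gene was detected in every cell, and the mean level of these 8 genes was the lowest of the 7 role groups at 1.96 ± 1.12 (SD, n = 7 cells), against 4.50 ± 1.03 for endocytosis and 4.46 ± 1.81 for the SNARE regulators. Pclo, which encodes the scaffold Piccolo, came nearest. It had 24.3, 111, 8.38, 3.98, 14.4 and 3.61 TPM in cells 1 to 6 but no count in cell 7, where 3 counts would have been 0.0591 TPM. Bsn, encoding the sister scaffold Bassoon, was above 1 TPM in cells 1 and 2 alone, at 6.47 and 8.36 TPM.

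The RIM proteins tether vesicles and calcium channels. Rims1 had 0, 49.6, 13.3, 0, 9.85, 0.0758 and 104 TPM in cells 1 to 7, and Rims2 had 6.59, 45.9, 0, 7.15, 7.34, 3.79 and 0 TPM. Each cell had at least 1 of the pair above 1 TPM, both in cells 2 and 5. Erc2, a scaffold that binds RIM, was above 1 TPM in 4 cells, up to 51.0 TPM in cell 5.

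Munc13 proteins prime vesicles for fusion. Unc13a, the main form of excitatory synapses, had 16.2, 0.573 and 0.852 TPM in cells 2, 3 and 5 and none elsewhere. Unc13b, a second form, had 80.0, 18.7 and 2.52 TPM in cells 3, 4 and 5. Unc13c, best known from the cerebellum, stood at 0.333, 3.54, 3.83 and 0.182 TPM in cells 2, 3, 5 and 7. In cells 1, 6 and 7 none of these genes was above 1 TPM. The floors of 3 counts for Unc13a and Unc13b were at most 1.02 and 0.636 TPM, which covers counting error and not loss of RNA before sequencing.

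The vesicle proteins ranged from genes seen everywhere to genes seen almost nowhere. Sncb lies at chr13:54758860-54766595 on the minus strand and encodes beta-synuclein, a presynaptic protein. It stood at 195, 112, 47.6, 99.6, 101, 54.5 and 82.7 TPM in cells 1 to 7. Its SD of 0.67 on the log2 scale was the smallest among the 25 members with a mean level of at least 3, with 0.71 for Dnm1 and 0.73 for Snap25 next, of which the value of Dnm1 did not hold on mRNA entries alone. The median SD of those 25 was 2.31, against 2.68 for the 2194 protein-coding genes at that level.

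Syp, synaptophysin, the abundant vesicle membrane protein, had 113, 254, 53.7, 165, 80.5 and 44.7 TPM in cells 1 to 6 and 0.258 TPM, from 2 counts, in cell 7. Its paralog Synpr, synaptoporin, had 12.3 TPM in cell 2, 1.87 TPM in cell 7 on 4 counts, and at most 0.249 TPM elsewhere. Cell 7 was therefore the 1 cell in which Synpr was above Syp, on few counts for both.

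Syn1, synapsin I, had 109, 178, 44.0, 48.3, 27.5, 14.5 and 0.655 TPM in cells 1 to 7. Syn2, synapsin II, had 74.1, 211, 11.8, 30.8, 163, 9.31 and 2.0 TPM. Both were highest in cell 2 and lowest in cell 7. Syn3, synapsin III, passed 1 TPM in cell 7 alone, at 1.42 TPM.

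Syngr3, synaptogyrin-3, showed the widest spread of the vesicle proteins, with an SD of 3.62. It had 414, 521, 48.6, 48.9 and 46.6 TPM in cells 1 to 5, none in cell 6 and 0.177 TPM, from 1 count, in cell 7. Syngr1, synaptogyrin-1, had 12.7, 122, 207, 51.4, 6.41, 9.49 and 0.235 TPM. Cell 6 thus kept Syngr1 where Syngr3 was listed at 0.

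Sv2a encodes a vesicle glycoprotein that binds the drug levetiracetam. It had 40.1, 111, 14.9, 1.11, 119, 3.77 and 4.99 TPM in cells 1 to 7, which places cell 4 at the edge of detection on 7 counts. Sv2c had 10.8 and 2.66 TPM in cells 6 and 7, and at most 0.145 TPM in the others. Sv2b had 5 counts in cell 6, equal to 0.274 TPM, and none in the other cells. Sv2b is a gene of glutamatergic neurons in the forebrain. Of 8 pyramidal markers, Neurod1, Tbr1 and Emx1 were at 0 in all 7 cells, while Slc17a7 and Neurod2 had 52.2 and 18.8 TPM in cell 2 and Neurod6 had 22.1 TPM in cell 5. The summed level of the list was 0.219 to 79.8 TPM with its highest value in cell 2, where Sv2b was at 0.

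Among the endocytosis genes, Dnm1 was in every cell. It lies at chr2:32308471-32353338 on the minus strand and encodes dynamin-1, the GTPase that cuts vesicles from the membrane. It stood at 59.6, 138, 84.7, 73.5, 98.8, 38.5 and 34.5 TPM in cells 1 to 7 when all its entries were summed. On mRNA entries alone it had 40.9, 67.4, 0.636, 38.2, 84.6, 0.00746 and 12.1 TPM, so that it was below 1 TPM in cells 3 and 6, and its SD was 2.60 on the log2 scale, against 0.71 for the sum. Its presence in every cell and its small spread thus held for the summed entries alone. Bin1, amphiphysin-2, was at 0.306, 48.6, 72.7, 62.9, 107 and 20.9 TPM in cells 1 to 6 and had no count in cell 7. Bin1 had the largest SD of the group, 2.83.

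Amph, amphiphysin-1, ran from 3.44 to 99.4 TPM in cells 1 to 6 and was at 0 in cell 7. Synj1 encodes synaptojanin-1, a lipid phosphatase of vesicle uncoating. Its summed entries went the other way in cell 7, with 204 TPM, against 36.8, 74.5, 5.12, 0.645, 1.71 and 4.26 TPM in cells 1 to 6. Of the cell 7 value, 98.0% lay on 1 entry of 3501 bases, annotated as protein-coding, and a 7090-base entry had 4.17 TPM. The Synj1 entries with counts in cells 1 to 6 were 5074 to 7890 bases long. The part of the short entry in the difference was not tested.

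**Figure D3:**
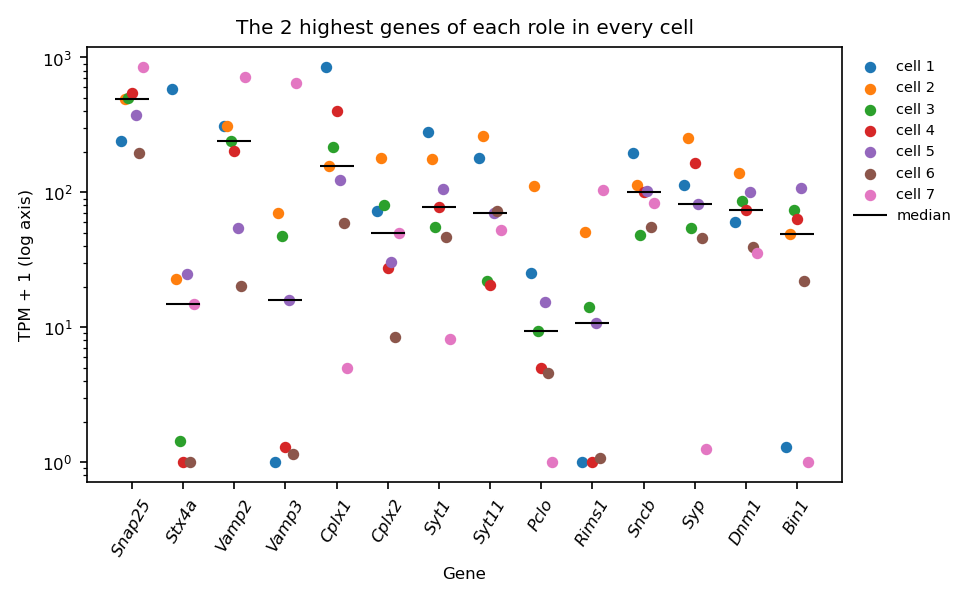
TPM + 1 on a log axis for the 2 genes with the highest mean level in each role group, 1 point per cell, with a black line at the median. Snap25, Sncb and, from its summed entries, Dnm1 have their 7 points close together, while Stx4a, Vamp3 and Rims1 spread from 0 TPM to 579, 651 and 104 TPM.

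The order of related genes within a cell does not depend on the scale of a table. Of 13 families of paralogs, 6 had 1 member in the lead in at least 6 cells. These were Snap25 and Syt1 in 7 cells and Vamp2, Pclo, Syp and Sv2a in 6. The lead was shared in the others. Napb was above Napa in 4 cells, Rims1 above Rims2 in 4, Syn1 above Syn2 in 4, and Unc13b led in 2 cells, Unc13c in 2 and Unc13a in 1. On mRNA entries alone Napb led in 6 cells, which made 7 families with such a lead, and both Napb and Napa were at 0 in cell 7.

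As log2 ratios of TPM + 1 inside a cell, the widest separation was Snap25 over Snap23, with a mean of 6.02 ± 2.16 (SD, n = 7 cells) and a positive ratio in 7 of 7 cells. Syt1 over Syt2 had a mean of 5.89 ± 1.67, also positive in 7 cells. Sv2a over Sv2b, at 4.09 ± 2.35, and Vamp2 over Vamp3, at 3.73 ± 3.02, were positive in 7 cells too, so 4 of 16 pairs kept their order in every cell. The size of such a ratio carries the scale and the pseudocount where a gene is near 0. Snap23 was at 0 in cells 1, 3 and 6, Syt2 in 5 cells and Sv2b in 6, where the ratio only restates the level of the other gene. The Vamp2 to Vamp3 ratio was only 0.13 in cell 7, the cell with the retained-intron entry of Vamp3.

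Pclo over Bsn, at 2.28 ± 1.39, was positive in cells 1 to 6, and neither gene had a count in cell 7. The other 11 pairs each had a cell of the opposite order. Syn1 over Syn2 averaged -0.01 ± 1.39, Syt1 over Syt11 0.08 ± 1.53, Napb over Napa 0.21 ± 1.86, and Rims1 over Rims2 0.42 ± 3.67. Cplx1 over Cplx2 averaged 1.46 ± 2.51 and was -3.32 in cell 7. Syp over Synpr averaged 4.92 ± 2.86 and was -1.19 in cell 7. Sv2a over Sv2c averaged 3.34 ± 3.26 and was -1.31 in cell 6. The synapsin and RIM genes therefore had no fixed order across these cells. For the SNAP adaptors the order rested on noncoding entries of Napa, and on mRNA entries alone Napb was the higher in cells 1 to 6.

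**Figure D4:**
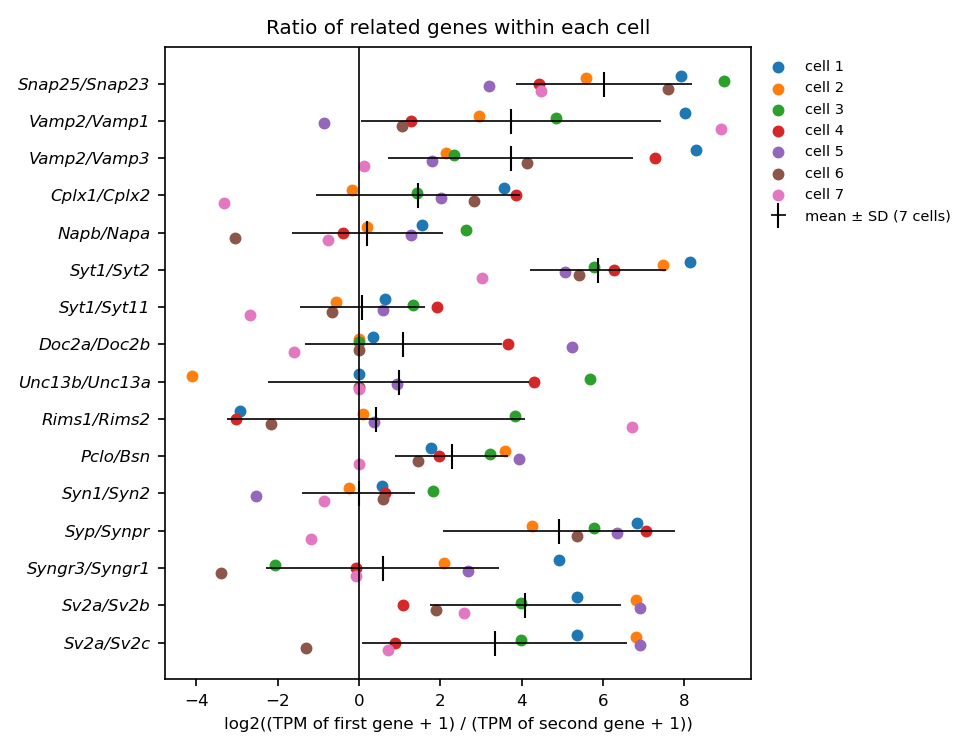
Log2 ratio of TPM + 1 for 16 pairs of related genes, 1 point per cell, with mean ± SD over the 7 cells as a tick and bar. All 7 points of Snap25/Snap23, Vamp2/Vamp3, Syt1/Syt2 and Sv2a/Sv2b lie right of 0, and cell 7 is the leftmost point for Cplx1/Cplx2, Syt1/Syt11 and Syp/Synpr.

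The b version of the Snap25 exon printed above was the main one in every cell. The SNAP-25b mRNA, the form that prevails in the adult brain, carried 100% of the Snap25 TPM in cells 1, 2 and 7, and 89.2%, 90.1%, 92.0% and 90.6% in cells 3 to 6. The SNAP-25a mRNA, the form of the early brain and of endocrine cells, carried 2.90% in cell 5, on 55.0 estimated counts, and 8.78% in cell 6, on 119. It had no count in cells 1, 2, 4 and 7 and less than 1 estimated count in cell 3. What remained lay on predicted transcripts whose exon 5 was not looked up. The b form was thus in the large majority in all 7 cells, and the listed SNAP-25a mRNA was seen in 2 of them. Since a predicted transcript held 10.8% in cell 3, the cells with the a version of the exon could not be counted.

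The synapsin I forms had no such common pattern. The form without the printed 38-base stretch, synapsin Ib, took all of the Syn1 TPM in cells 1, 4 and 6, 41.2% in cell 2 and 55.2% in cell 3. The form with it, synapsin Ia, took 58.8% in cell 2, 44.8% in cell 3 and 100% in cells 5 and 7. The value of cell 7 rested on 6 counts, while that of cell 5 rested on 217 and those of cells 1, 4 and 6 on 613, 248 and 156. So 2 cells held both forms, 3 held the shorter alone and 2 the longer alone. The reads that bear on a 38-base stretch are a small part of those counts, and how reads were split between forms is not given in the sources used here.

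Vamp1 also changed form between cells. The 5-exon transcript was the sole one in cells 3 to 6, on 51, 360, 655 and 80 counts, and a 4-exon transcript with a longer last exon was the sole one in cell 2, on 269 counts.

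**Figure D5:**
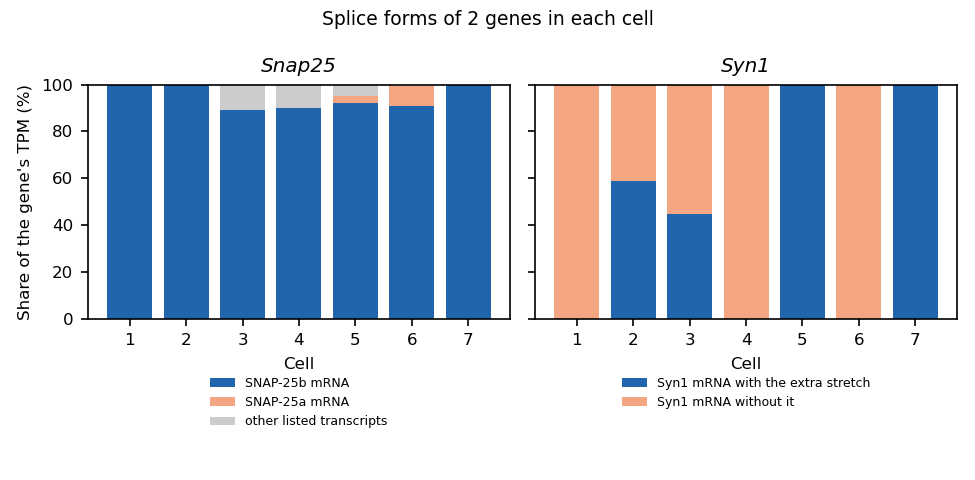
Share of the gene's TPM (percent, vertical axis) carried by each splice form of Snap25 (left) and Syn1 (right) in each cell. SNAP-25b fills at least 89.2% of every Snap25 bar, and the Syn1 bars are of 1 form in cells 1, 4, 5, 6 and 7 and mixed in cells 2 and 3.

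A few values rested on entries that are not mRNAs. In cell 7 these were Vamp3, Snap23 and Stx4a on retained-intron entries, on 1393, 85.6 and 18.4 estimated counts, and Dnm1, with 65.1% on an entry marked for nonsense-mediated decay. Dnm1 also had 51.1%, 99.2% and 100% of its TPM on noncoding RefSeq entries in cells 2, 3 and 6, and Stxbp5 87.9% in cell 5. Counting mRNA entries alone, 24, 38, 29, 29, 38, 24 and 19 members were above 1 TPM in cells 1 to 7.

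Cell 7 parted from the others in which members it held. In cells 1 to 6, 17 members were detected in every cell, 34.7% of them, against 4.63% of all protein-coding genes. Of those 17, 7 were not detected in cell 7: Syn1, Syp, Syngr1, Nsf, Napb, Pclo and Amph. That is 41.2%, against 36.1% of the 961 genes detected in cells 1 to 6, so the share lost was close to that of genes in general. The level of the SNARE regulators was 1.52 in cell 7, against 3.40 to 6.98 in cells 1 to 6, and that of the vesicle proteins was 1.53, against 2.59 to 5.23. The target SNAREs stood at 4.91 in cell 7, against 1.25 to 4.93 in cells 1 to 6, but at 3.60 in cell 7 on mRNA entries alone, where Snap23 and Stx4a have none. The part of the glial marker levels and of the other transcript index in these differences was not tested.

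Cell 2, the library with the most estimated counts, held the highest value of 18 of the 47 members detected in at least 1 cell, cell 5 of 9 and cell 7 of 8, while cell 6 held the highest of 1. The 18 are 38.3% of those members, against 37.7% of the 11447 protein-coding genes detected in at least 1 cell, so the members peaked there about as often as genes in general. Cell 2 had 3398521 estimated counts and cell 7 had 3225330, with 38 and 22 members detected. The part of depth was not tested. Red blood cell markers also summed to their highest level in cell 2, 10493 TPM, as did pyramidal markers, at 79.8 TPM, and their part was not tested.

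The wider release machinery followed a like pattern. Of 75 further genes, 25, 53, 47, 35, 49, 41 and 25 were above 1 TPM in cells 1 to 7. These were 33.3% to 70.7% of them, against 14.7% to 38.8% of all protein-coding genes. In every cell, 9 of the 75 were detected, against 2.96% of all genes, and these included Stxbp2, Snap47, Cadps, Rph3a, Dnm3, Clta and Cltc. The 5 of the 75 in no cell, against 44.8% of all genes, were Cplx3, Cplx4, Syt10, Syt16 and Syt17. Snap47, an atypical SNAP-25 relative, had 78.4, 251, 270, 180, 100.2, 25.6 and 112 TPM and was above Snap23 in every cell by summed entries. Of its cell 7 value, 105 TPM lay on a 353-base entry, and entries of 1192 and 1896 bases had 4.87 and 1.82 TPM. Snap23 had 37.3 TPM in that cell, on a retained-intron entry. Cadps, the priming factor CAPS-1 of dense-core vesicles, had 37.2, 190, 10.6, 22.1, 61.5, 1.26 and 19.3 TPM. Rab3a, the vesicle GTPase that binds RIM, had 69.8 to 539.8 TPM in cells 1 to 6 and 0.890 TPM, from 3 counts, in cell 7. Unc13d, the Munc13 of blood and immune cells, had 519 TPM in cell 7, all on an entry annotated as a processed transcript, and at most 0.666 TPM in the others.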

How the data were processed

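Whole-transcript cDNA of single cells (SMART-Seq v4 kit, Nextera XT libraries, paired ends) was sequenced, per the labels' protocols. Per the file headers, each deposited table gives TPM, an estimated count and lengths for every transcript. STAR 2.5.2a, kallisto and mm10 stand in the submitters' processing notes; their roles, settings and use of strand are not given in the sources. The tables list 107278 RefSeq transcripts (cells 1 to 5), 107277 (cell 6) or 88197 Ensembl transcripts (cell 7), so the deposited TPM values were normalised separately.

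TPM and estimated counts were summed per gene symbol. Missing symbols, or symbols turned into dates, were looked up by transcript accession, which restored 122 of 157 in every RefSeq table and 81 of 1210 in the Ensembl table. Rows still without a name held at most 0.482% of TPM and were left out. Protein-coding genes were those with a RefSeq mRNA accession in the table of cell 1. A gene above 1 TPM was detected. Levels are log2(TPM + 1), which compresses changes of low genes, and a group level is the mean over its genes. Rescaled values share 1000000 TPM over protein-coding genes alone. A floor is the TPM equal to 3 counts, taken at the median effective length of the gene's listed transcripts.

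The labels tie no cell to an animal, so no p-value or standard error was computed. The members and lists were chosen with earlier results of these data known. Values are given for the 2 highest members of each of 7 roles, for each member that led its family in a cell and for the member with the largest SD of each role, and the rest are given by range. Values of Stx12, Nsf, Synj1 and others outside that rule, and those of the wider list, were chosen after they were seen. Some genes of the wider list are not reported here. Alternatives were other thresholds, pseudocounts of 0.1 and 10, the single highest transcript of a gene, rescaling, leaving out each cell and, chosen after seeing the data, mRNA entries alone. The calculations were tested on simulated data. Python 3.11.15 with pandas 2.3.3, numpy 2.4.6 and matplotlib 3.10.9 was used.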

Additional observations from a re-analysis of the deposited data

Results flagged for a closer look

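In 7 of 74 values, 1 cell lay far from the other 6 by Dixon's ratio of gap to range. Genes entered as log2(TPM + 1), and their values are given below in TPM. Chance alone picks out about 1 in 20 such groups where values are normally distributed. That rate does not hold for genes at 0 in most cells, such as Sv2b, where a single value above 0 is always picked out. Of the 6 genes concerned, 3 were at most 1 TPM in at least 6 cells. Syp was low in cell 7, at 0.258 TPM, against 44.7 to 254 TPM in cells 1 to 6. Nsf was low in the same cell, at 0.102 TPM, against 28.4 to 95.0 TPM. The log2 ratio of Syp to Synpr was -1.19 in cell 7, against 4.26 to 7.05 in the others. Synpr was high in cell 2, at 12.3 TPM, against at most 1.87 TPM in the others, and Unc13a was high in cell 2, at 16.2 TPM, against at most 0.852 TPM. Syt2 was high in cell 5, at 2.14 TPM on 37.5 estimated counts, against at most 0.0889 TPM in the others. Sv2b was high in cell 6, at 0.274 TPM on 5 counts, against 0 in the others. All 6 genes still stood apart after rescaling to protein-coding genes.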

How the results depend on the processing

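No paired analysis was possible because the 7 cells form 1 group. The number of members detected in every cell was 10, and it was 18 above 0 TPM, 5 above 10 TPM and 10 to 17 with 1 cell left out, 17 of them without cell 7. The number detected in no cell was 2, and it was 1 above 0 TPM, above 3 estimated counts or after rescaling and 8 above 10 TPM. The median of 41 wider genes per cell was 27 above 10 TPM. The mean member level of 3.24 was 2.07 with a pseudocount of 0.1 and 4.83 with a pseudocount of 10. With the pseudocount of 10 the level was 5.0 for target SNAREs, 5.09 for vesicle SNAREs, 4.41 for synaptotagmins and Doc2, 4.01 for the active zone and 4.93 for vesicle proteins. With 0.1 it was 0.94 for synaptotagmins and Doc2 and 0.44 for the active zone. The endocytosis level was 5.89 after rescaling. These follow from the arithmetic of each setting. The mean ratio changed sign in some setting for 5 pairs, each with a mean within its SD: Syn1/Syn2, Syt1/Syt11, Rims1/Rims2, Napb/Napa and Syngr3/Syngr1. On mRNA entries alone 9 members were detected in every cell. With 1 cell left out, 13 of 889 other values moved, namely the SDs of 11 genes and, for Unc13b, 2 counts of cells led, each by more than 1.5 times. Depth limits genes listed at 0, which may lie below the floor of 3 counts.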
